A study of Homo sapiens with 2 samples.

Results

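The genes described are the 34 nuclear genes in the deposited table that encode subunits and close partners of the machinery for mitochondrial protein import. They were taken by name, as all TIMM and TOMM genes other than pseudogenes together with PAM16, GRPEL1, GRPEL2, PMPCA, PMPCB, SAMM50, MTX1, MTX2, CHCHD4 and GFER, from a table of 31798 rows and 28615 gene symbols. The naming rule uses no expression value, though it was set with earlier results of these data known, and not every subunit of these complexes is analysed here. Of the 34 genes, 32 were expressed, meaning a mean of at least 1 FPKM (fragment counts scaled by transcript length and library size) over both libraries. TIMM21 and TOMM20L did not reach that level.

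RNA was sequenced from the HCT116 line, established from a human colorectal cancer, with 1 library labelled SRD5A1 knockdown and 1 labelled control. SRD5A1 encodes a steroid 5-alpha reductase, and the design asks which transcripts differ when it is lowered. The knockdown library is tagged Dox in its title and the control library KD, and groups follow the genotype labels. If the labels were exchanged, every direction given here would reverse. Neither the meaning of the tags nor the knockdown construct, dose and time is given in the sources used here. With 1 library per condition there is no replicate check, so no test between conditions was made and all differences describe these libraries alone.

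Nearly all mitochondrial proteins are encoded in the nucleus, made in the cytosol and threaded into the organelle. The TOM complex of the outer membrane is the common entry gate. Proteins with a cleavable presequence continue through the TIM23 complex, pulled by a motor and trimmed by a peptidase in the matrix. Carrier proteins are escorted by small TIM chaperones to the TIM22 complex, barrel-shaped outer membrane proteins are inserted by the SAM complex, and small cysteine-rich proteins of the intermembrane space are trapped there by a disulfide relay.

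The library labelled knockdown held 54740670 counts and the control library 41814981, and genes encoded in mitochondrial DNA took 12.8% and 18.3% of them. SRD5A1 itself stood at 6.25 FPKM in the knockdown library and 10.8 FPKM in the control, a ratio of library-scaled counts (CPM) of 0.581 with a counting interval of 0.554 to 0.609, so the gene was lower in the library labelled as its knockdown. The epithelial markers EPCAM, KRT8, KRT18 and CDH1 were all present, from 9.62 FPKM (CDH1, control) to 413.6 FPKM (KRT8, knockdown), while the leukocyte marker PTPRC had 4 counts and 0, and the endothelial marker PECAM1 had 4 and 10. The fibroblast-associated collagen COL1A1 was at 2.39 and 4.02 FPKM, and the adipocyte marker PLIN1 had 0 counts in the knockdown library and 61 in the control. In bulk RNA, a change in the RNA of each cell and a change in which cells were present cannot be told apart.

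Promoter sequence is shown for 6 genes on which the comparison turns. CHCHD4, TIMM10, TIMM23 and TIMM22 had the largest positive differences among the 32 expressed genes, and TOMM20 was lower in the knockdown library. TIMM23B is a near copy of TIMM23 whose assigned counts did not differ in the same way, though reads may have been split between these copies. Each stretch comes from RefSeq (build GRCh38.p14) and is the longest run free of annotated exons within the 250 bases before the gene's start, given 5′ to 3′ on the gene's strand. Capitals mark matches, on either strand, to CCGGAAG (the ETS motif), CACGTG (the E-box) or CCAAT (the NFY motif). The windows searched below reach beyond these stretches, and a match not wholly inside a stretch is not marked. In its window TIMM10 has CCGGAAG and CACGTG, and TOMM20 has CCGGAAG, which their stretches do not show. The stretches lie at chr3:14124871-14124939 (minus strand, CHCHD4), chr11:57530804-57531004 (minus, TIMM10), chr10:45972239-45972448 (plus, TIMM23), chr10:49941999-49942032 (plus, TIMM23B), chr17:996879-997116 (plus, TIMM22) and chr1:235128937-235129087 (minus, TOMM20).
CHCHD4: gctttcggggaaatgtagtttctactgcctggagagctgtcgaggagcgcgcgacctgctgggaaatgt
TIMM10: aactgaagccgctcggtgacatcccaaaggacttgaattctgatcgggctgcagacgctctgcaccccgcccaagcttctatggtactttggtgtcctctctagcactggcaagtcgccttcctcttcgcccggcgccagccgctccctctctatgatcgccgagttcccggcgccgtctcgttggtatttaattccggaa
TIMM23: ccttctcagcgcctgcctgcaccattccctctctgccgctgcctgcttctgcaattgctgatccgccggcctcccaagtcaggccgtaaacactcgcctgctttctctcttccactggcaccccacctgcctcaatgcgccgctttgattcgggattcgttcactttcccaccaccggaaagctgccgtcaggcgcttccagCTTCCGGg
TIMM23B: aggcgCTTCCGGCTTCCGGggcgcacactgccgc
TIMM22: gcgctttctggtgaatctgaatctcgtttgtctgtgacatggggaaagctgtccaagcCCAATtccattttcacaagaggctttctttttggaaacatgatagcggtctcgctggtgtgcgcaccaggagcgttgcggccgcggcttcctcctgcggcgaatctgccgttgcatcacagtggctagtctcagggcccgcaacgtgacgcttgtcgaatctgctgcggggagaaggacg
TOMM20: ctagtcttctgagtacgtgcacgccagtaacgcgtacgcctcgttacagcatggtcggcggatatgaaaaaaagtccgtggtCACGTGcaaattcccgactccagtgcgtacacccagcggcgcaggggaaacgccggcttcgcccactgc

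Over the 31 genes with a RefSeq window of 300 bases (250 before to 50 after the start; GRPEL1, TIMM8B and TOMM5 had none), 7 motifs were searched on both strands, and no matches of different motifs overlapped in these windows. The ETS motif CCGGAAG was in 14 of the 31 windows (45.2%), against 20.2% of 7054 windows of expressed genes and 10.3% of all 35116 windows. Of the 9 import genes described below as 2-fold higher, 5 were among those 14, and TIMM8B, another of the 9, had no window to search. TOMM6, the 1 gene called 2-fold lower, was among them too, as was TOMM20. The longer motif of the respiratory factor NRF1 was in 7 windows (22.6%), against 12.4% of expressed and 5.78% of all windows, and CHCHD4 was the only one of the 9 higher genes with a match. The motif letters were thus found in windows of genes that differed and of genes that did not, and a match describes only the letters. The YY1 motif AAGATGGC was in 3 windows (9.68%, against 6.22% of expressed and 2.89% of all windows), the E-box CACGTG in 3 (9.68%, against 10.6% and 7.26%) and CCAAT in 11 (35.5%, against 37.0% and 34.6%). The stress response motif TGATGNAAT, the composite site named for ATF4, was in 1 window, that of PMPCB (3.23%, against 0.369% and 0.991%), and the cyclic AMP element TGACGTCA was in 0 of 31 (against 3.43% and 1.85%).

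The differences below are in log2(FPKM + 1), knockdown minus control, a scale on which differences of weakly expressed genes come out too small. A gene was called 2-fold higher at 1 or more and 2-fold lower at -1 or less. By that rule 9 of the 32 expressed import genes were higher (28.1%), against a background of 20.9% of 10143 expressed genes, and 1 was lower (3.13%), against 6.83%. The count of higher genes is close to the background, so it is no result about import genes as a set. The median difference was 0.42 over the 32 genes and 0.30 over all expressed genes, and 24 of the 32 were above 0, against 64.3% of all expressed genes. Summed FPKM of the 34 genes was 621 in the knockdown library and 475 in the control, and their share of all counts was 0.182% and 0.141%.

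These counts depend on the scaling of the libraries. Among all called genes 75.3% were higher, against 61.1% with TMM factors (a trimmed mean of ratios), 53.1% with the median ratio set to 1 and 51.6% with the upper quartiles set equal. Those scalings divide the knockdown values by a further 1.20, 1.301 and 1.32. Under each of the 3, 6 of the 32 import genes stayed higher (18.8%: CHCHD4, TIMM10, TIMM23, TIMM22, TIMM13 and TIMM8B), against 15.2%, 13.1% and 12.7% of all expressed genes. Under each, 2 were lower (6.25%), against 9.66%, 11.6% and 11.9%. There MTX2, TOMM22 and TIMM8A no longer reached 2-fold, and TOMM20 passed it downward beside TOMM6. The signs of PAM16, PMPCB, TIMM10B, TIMM29, TIMM50, TOMM7 and TOMM70, whose differences lay between 0.02 and 0.32, turned under at least 1 of these scalings.

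**Figure D1:**
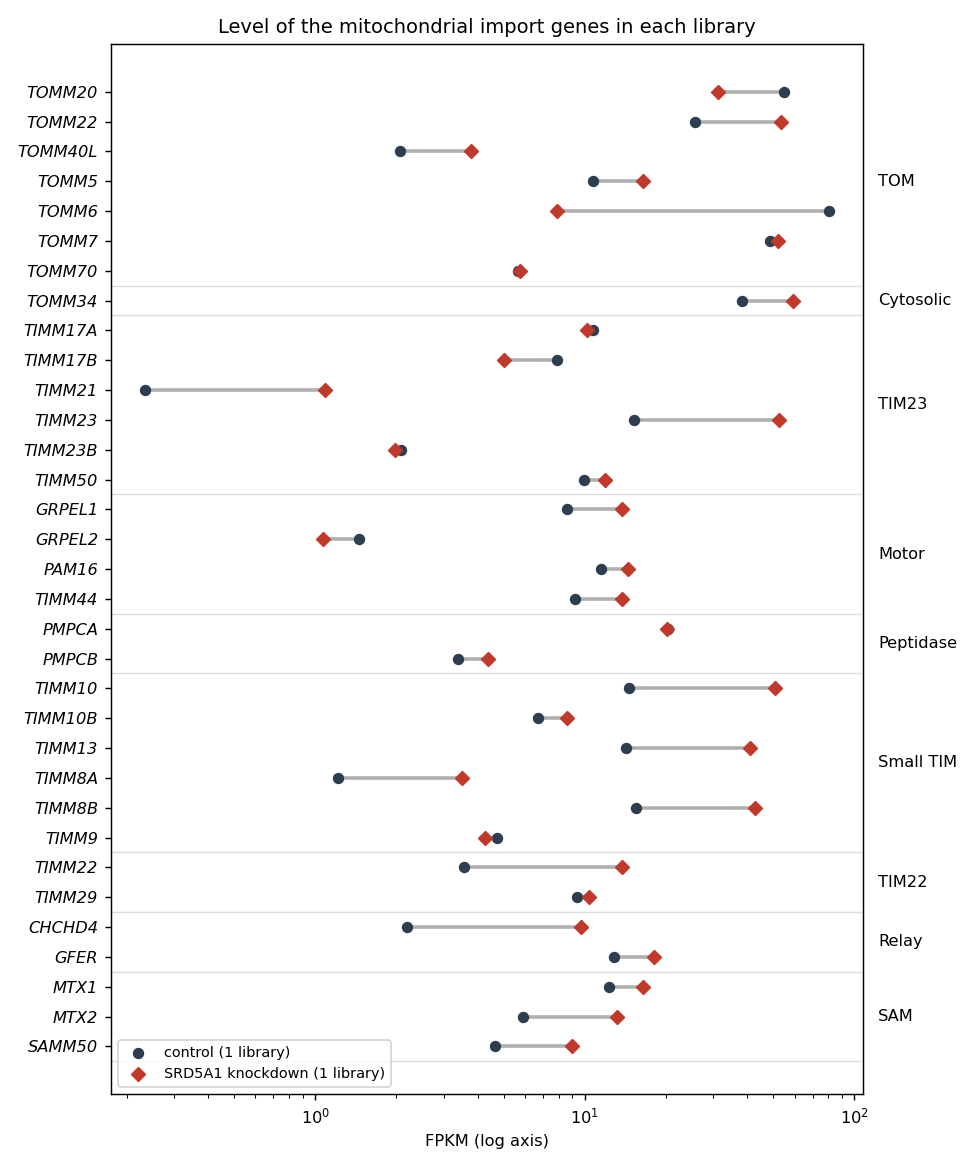
FPKM (log axis) of the 33 import genes with a value above 0, by role, with a circle for the control and a diamond for the knockdown library (1 library each). TOMM6 lies far to the left in the knockdown library, while CHCHD4, TIMM22, TIMM23 and TIMM10 lie to the right. TOMM20L is listed at 0 in both and is not drawn.

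The role groups differed in how many of their genes were higher, as the plot of levels by role shows. Against the 20.9% of all expressed genes called higher, 4 of the 6 small TIM chaperones were (66.7%), and their summed FPKM was 151 in the knockdown library and 56.8 in the control. The TIM23 complex had 1 higher gene of 5 expressed, the TIM22 complex 1 of 2, the disulfide relay 1 of 2 and the SAM complex 1 of 3. The motor had 0 of 4 and the processing peptidase 0 of 2. The TOM complex had 1 higher and 1 lower gene of 7, and its summed FPKM was 171 in the knockdown library and 228 in the control. That direction rests on TOMM6, whose value depends on read assignment as described below, since without it the sum was 163 in the knockdown library and 148 in the control. Under the 3 other scalings the small TIM chaperones had 3 of 6 higher (without TIMM8A), and the SAM complex (without MTX2) and the TOM complex (without TOMM22) had 0. These groups hold few genes and were not tested against each other.

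The small TIM chaperones work as hexamers that shield hydrophobic proteins in the intermembrane space. TIMM10, a partner of TIMM9 in the carrier chaperone, was at 50.8 FPKM (2574 counts) in the knockdown library and 14.6 FPKM (566 counts) in the control. Its difference was 1.73, and its CPM ratio was 3.47, with a 95% interval of 3.17 to 3.81. All CPM ratios carry such exact Clopper-Pearson intervals, which cover the error of counting alone and no variation between replicates. PCR copies of 1 molecule could not be told from separate molecules, so the intervals may be too narrow even for counting. TIMM9 did not move with its partner, at 4.28 FPKM (398 counts) and 4.72 FPKM (336 counts), a CPM ratio of 0.905 (0.781 to 1.05).

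TIMM13 and TIMM8A form the second chaperone pair, which serves the import of TIMM23 among other substrates. TIMM13 was at 41.0 FPKM in the knockdown library and 14.2 FPKM in the control, a difference of 1.47 and a CPM ratio of 2.89 (2.71 to 3.09). TIMM8A, the gene mutated in deafness-dystonia syndrome, was at 3.49 and 1.21 FPKM, a difference of 1.02 and a CPM ratio of 2.86 (2.43 to 3.38). Its paralogue TIMM8B was at 42.8 and 15.4 FPKM, a difference of 1.42 and a CPM ratio of 2.77 (2.58 to 2.99). The ratios of these 3 genes lay within each other's counting intervals. TIMM10B, which joins the chaperones at the TIM22 complex, was at 8.62 and 6.73 FPKM, a difference of 0.32 that is near the median of all expressed genes.

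Both TIMM13 and TIMM8B share exon bases with other genes, and how reads there were assigned is not known. TIMM13 shares 257 of its 1973 exon bases with the same-strand gene LMNB2, which had 31271 counts in the knockdown library and 10668 in the control. It shares 313 with TMPRSS9 on the opposite strand, which had 50 and 12 counts. TIMM8B shares 351 of 1166 exon bases with NKAPD1 on the opposite strand, which had 443 and 236 counts. The part of this sharing in the differences of TIMM13 and TIMM8B was not tested.

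The TIM22 complex inserts carriers into the inner membrane. Its channel protein TIMM22 was at 13.8 FPKM (2863 counts) in the knockdown library and 3.56 FPKM (566 counts) in the control, a difference of 1.69 and a CPM ratio of 3.86 (3.53 to 4.24). TIMM29, a metazoan subunit of the same complex, was at 10.4 and 9.38 FPKM, a CPM ratio of 1.10 (1.01 to 1.21). The channel gene was therefore higher and its partner nearly level. TIMM22 shares 154 of its 3194 exon bases with ABR on the opposite strand. ABR had 7347 counts in the knockdown library and 2531 in the control, and the part of this sharing in the TIMM22 difference was not tested.

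In the TIM23 complex 1 of the 5 expressed genes was called higher, and the others stood in both directions. TIMM23, the channel-forming subunit, was at 52.4 FPKM (4074 counts) in the knockdown library and 15.3 FPKM (906 counts) in the control. This gave a difference of 1.72 and a CPM ratio of 3.43 (3.20 to 3.70). TIMM50, the receptor that hands presequences to the channel, was at 11.9 and 9.94 FPKM, a difference of 0.24. TIMM17A and TIMM17B are alternative partners of TIMM23. TIMM17A was at 10.2 and 10.7 FPKM, a CPM ratio of 0.951 (0.895 to 1.01). TIMM17B was at 5.004 and 7.85 FPKM, a difference of -0.56 and a CPM ratio of 0.638 (0.581 to 0.700). TIMM21, which links TIM23 to TOM and to the respiratory chain, was too low to count as expressed, at 1.08 FPKM (371 counts) and 0.234 FPKM (64 counts). Its CPM ratio of 4.43 (3.39 to 5.87) was the highest of the 33 genes with counts, and its interval overlapped that of CHCHD4.

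TIMM23B is a copy of TIMM23 on the same chromosome, and their principal transcripts were 98.4% identical over 676 aligned bases. It was at 1.97 FPKM (395 counts) in the knockdown library and 2.08 FPKM (319 counts) in the control. Reads that fit both copies may have been split between them, so both values are uncertain. The summed counts of the pair had a CPM ratio of 2.79 (2.62 to 2.97), against 3.43 for TIMM23 alone.

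None of the motor genes within the set of import genes was past 2-fold. Outside that set, the mitochondrial HSP70 itself, HSPA9, was at 19.2 FPKM in the knockdown library and 9.24 FPKM in the control. Its difference of 0.98 was just below the 2-fold call, and its CPM ratio was 2.07 (1.999 to 2.15). The J proteins DNAJC15 and DNAJC19 had differences of 0.68 and 0.58. Their CPM ratios were 2.71 (2.33 to 3.16) and 1.70 (1.51 to 1.91). TIMM44, which tethers the mitochondrial HSP70 to the channel, was at 13.7 FPKM in the knockdown library and 9.18 FPKM in the control. PAM16, a regulator of the motor's J protein, was at 14.4 and 11.5 FPKM. GRPEL1 and GRPEL2 exchange the nucleotide of the HSP70, and they stood in different directions. GRPEL1 was at 13.7 and 8.60 FPKM, a CPM ratio of 1.59 (1.503 to 1.69), and GRPEL2 at 1.07 and 1.45 FPKM, a CPM ratio of 0.735 (0.627 to 0.862). The matrix processing peptidase removes presequences. PMPCA, its substrate-binding subunit, was nearly level at 20.2 and 20.4 FPKM, a CPM ratio of 0.992 (0.961 to 1.02). PMPCB, the catalytic subunit, was at 4.36 and 3.38 FPKM, a difference of 0.29.

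The disulfide relay oxidises twin-cysteine proteins as they arrive. CHCHD4, the oxidoreductase that receives them, had the largest difference of the 32 expressed genes, at 9.64 FPKM (1117 counts) in the knockdown library and 2.19 FPKM (194 counts) in the control. The difference was 1.74 and the CPM ratio 4.40 (3.77 to 5.15). GFER, the sulfhydryl oxidase that re-oxidises CHCHD4, was at 18.0 and 12.9 FPKM, a difference of 0.46. Of 18 twin-cysteine substrates of this relay, 5 were called higher (27.8%, against 20.9% of all expressed genes) and 0 lower (against 6.83%), with a median of 0.20 against 0.30. Among them COA4, CHCHD1 and NDUFA8 had differences of 1.82, 1.49 and 1.33, and the copper chaperone COX17 had -0.40.

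**Figure D2:**
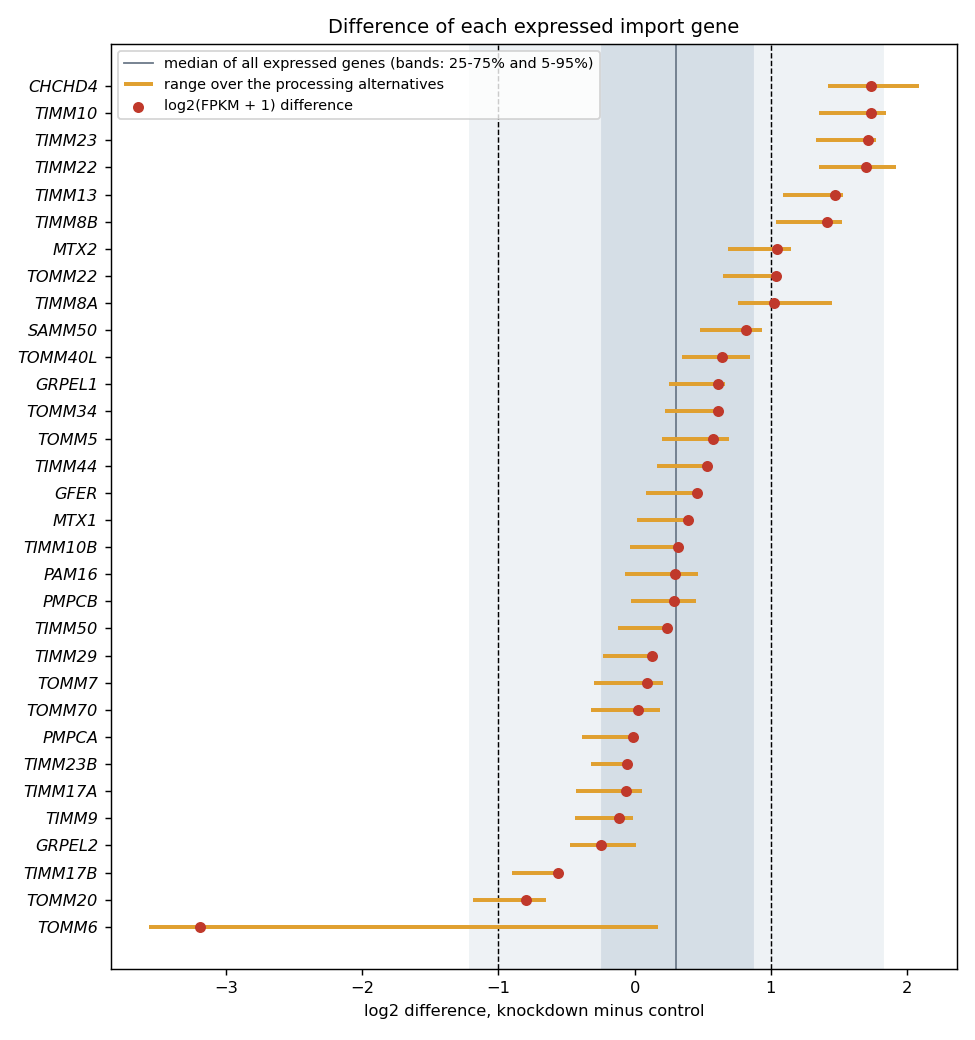
Difference in log2(FPKM + 1), knockdown minus control, of the 32 expressed import genes (points), with the range over the processing alternatives (bars), the median of all expressed genes (line) and their 25th to 75th and 5th to 95th percentiles (bands). The 6 genes at the top, from CHCHD4 at 1.74 to TIMM8B at 1.42, lie right of the dashed 2-fold line over their whole range, while the bar of TOMM6 reaches from -3.56 to 0.17.

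The outer membrane SAM complex inserts barrel proteins. SAMM50, its central subunit, was at 8.99 FPKM in the knockdown library and 4.66 FPKM in the control, a difference of 0.82. The metaxins MTX1 and MTX2 are its cytosolic-side partners. MTX2 was at 13.2 and 5.88 FPKM, a difference of 1.04 and a CPM ratio of 2.24 (2.02 to 2.48). MTX1 was at 16.5 and 12.3 FPKM, a difference of 0.39, and its pseudogene MTX1P1, 99.0% identical over 837 aligned bases, held 748 and 501 counts. With that copy added, the CPM ratio of MTX1 was 1.29 (1.23 to 1.36), against 1.33 (1.26 to 1.41) without it.

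The TOM receptors went in different directions. TOMM20, the presequence receptor, was at 31.2 FPKM (7013 counts) in the knockdown library and 55.0 FPKM (9440 counts) in the control, a difference of -0.80 and a CPM ratio of 0.567 (0.550 to 0.585). TOMM22, the central receptor that TOMM20 docks to, was at 53.5 FPKM (7629 counts) and 25.5 FPKM (2782 counts), a difference of 1.04 and a CPM ratio of 2.09 (2.01 to 2.19). TOMM70, the receptor for carriers, was nearly level at 5.73 and 5.63 FPKM. By FPKM, TOMM20 was above TOMM22 in the control library and below it in the knockdown library.

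The small TOM subunits TOMM5 and TOMM7 stabilise the pore. TOMM5 was at 16.4 FPKM in the knockdown library and 10.7 FPKM in the control, and TOMM7 was nearly level at 51.9 and 48.8 FPKM. TOMM40L, a low-level paralogue of the channel protein, was at 3.79 and 2.07 FPKM, a difference of 0.64. TOMM34, a cytosolic co-chaperone, was at 59.0 and 38.4 FPKM, a difference of 0.61. TOMM20L had 0 counts in both libraries, which allows up to 0.0548 CPM in the knockdown library and 0.0717 CPM in the control (3 counts each).

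TOMM6, the third small TOM subunit, was the only import gene called lower. TOMM6 (ENSG00000214736, GRCh38 chromosome 6, 41787662 to 41789898, plus strand, 3 exons) was at 7.91 FPKM (331 counts) in the knockdown library and 80.4 FPKM (2556 counts) in the control. The difference was -3.19 and the CPM ratio 0.0989 (0.0880 to 0.111). In the control library it was the most abundant import gene by FPKM, and in the knockdown library it ranked 24th of 34.

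This value depends on how reads at the locus were assigned. All 637 exon bases of TOMM6 also lie in exons of ENSG00000124593, a same-strand gene from 41780349 to 41790141 with 4479 exon bases, annotated in GENCODE release 29 with 2 transcripts of the nonsense-mediated decay type and 1 retained intron. That gene stood the other way, with 4549 counts in the knockdown library and 758 in the control, a CPM ratio of 4.58 (4.24 to 4.96). Summed over both genes there were 4880 and 3314 counts, a CPM ratio of 1.12 (1.08 to 1.18). TOMM6 took 6.78% of the summed counts in the knockdown (Clopper-Pearson 6.09 to 7.52) and 77.1% in the control library (75.7 to 78.5). A read inside TOMM6's exons is compatible with both genes, so less TOMM6 transcript and another assignment of these reads cannot be told apart. With the sum the difference of TOMM6 on the log2(CPM + 1) scale was 0.17. Of the other genes nearby, USP49, which overlaps TOMM6's end by 3 exon bases on the opposite strand, had 253 and 1095 counts, a CPM ratio of 0.176 (0.153 to 0.203), and FRS3 had 582 and 532, a ratio of 0.836 (0.742 to 0.942).

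**Figure D3:**
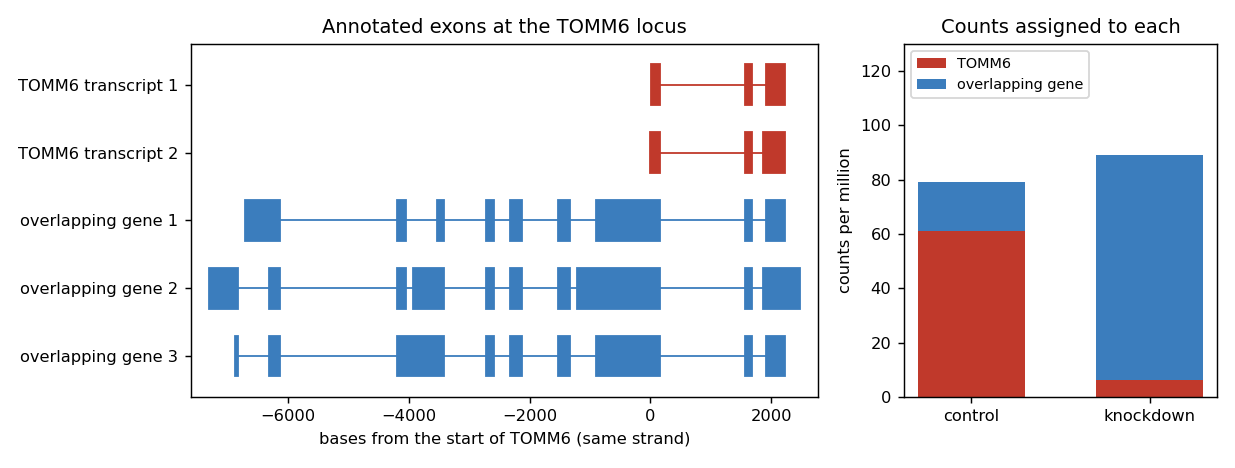
Left, exons of the annotated transcripts of TOMM6 and of the same-strand gene that contains them, by distance in bases from the start of TOMM6. Right, CPM assigned to each gene (stacked) in each library: TOMM6 takes 61.1 CPM of 79.3 in the control and 6.05 of 89.1 in the knockdown library.

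Levels between genes depend on the length used. With the summed counts as library size, FPKM here matched a length of about 1.19 times all annotated exons (median of 8906 genes, 5th to 95th percentile 1.14 to 1.23). Whether that factor lies in the length or in the library size used was not tested. A length that covers all exons penalises genes with retained-intron transcripts. By FPKM, TOMM34, TOMM22 and TIMM23 led in the knockdown library, and TOMM6, TOMM20 and TOMM7 in the control library. Per kilobase of the principal transcript, TOMM7 led in both libraries, with a length-scaled CPM of 139.6 in the knockdown library and 131 in the control, and TOMM5 moved from the 12th to the 2nd place in the knockdown library. PMPCA moved from the 9th to the 4th place there. The ratio of 1 gene between the libraries does not depend on its length.

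Ratios of 2 genes within a library do not depend on library scaling either. The intervals of their changes come from the standard error of the log ratio of the counts, and also cover counting alone. The FPKM ratio of TIMM10 to TIMM9 was 11.9 in the knockdown library and 3.09 in the control, a change of 3.84 times (3.23 to 4.56). TIMM22 to TIMM29 was 1.33 and 0.380, a change of 3.50 times (3.08 to 3.97). TIMM23 to TIMM50 was 4.40 and 1.53, a change of 2.87 times (2.64 to 3.12). CHCHD4 to GFER was 0.536 and 0.171, a change of 3.14 times (2.67 to 3.70). The first genes of these pairs are those with the largest differences above, so these shifts largely restate those values. TOMM22 to TOMM20 turned from 0.464 in the control to 1.71 in the knockdown library, a change of 3.69 times (3.50 to 3.89).

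The other pairs ranged from a kept ratio to shifts as large as these. TIMM13 to TIMM8A was 11.7 in both libraries, a change of 1.01 times (0.851 to 1.20), and TIMM8A to TIMM8B was 0.0816 and 0.0787, a change of 1.03 times (0.865 to 1.23). These genes of the second chaperone stayed together while TIMM10 and TIMM9 did not. TIMM17A to TIMM17B shifted by 1.49 times (1.34 to 1.66) and PMPCA to PMPCB by 0.771 times (0.710 to 0.837). GRPEL1 to GRPEL2 shifted by 2.16 times (1.83 to 2.56) and MTX1 to MTX2 by 0.596 times (0.531 to 0.668). TIMM23 to TIMM17A shifted by 3.61 times (3.29 to 3.97) and TIMM10 to TIMM10B by 2.71 times (2.40 to 3.06). TOMM20 to TOMM70 shifted by 0.558 times (0.518 to 0.600). TIMM23 to TIMM23B shifted by 3.63 times (3.08 to 4.28), though reads may have been split between these copies.

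**Figure D4:**
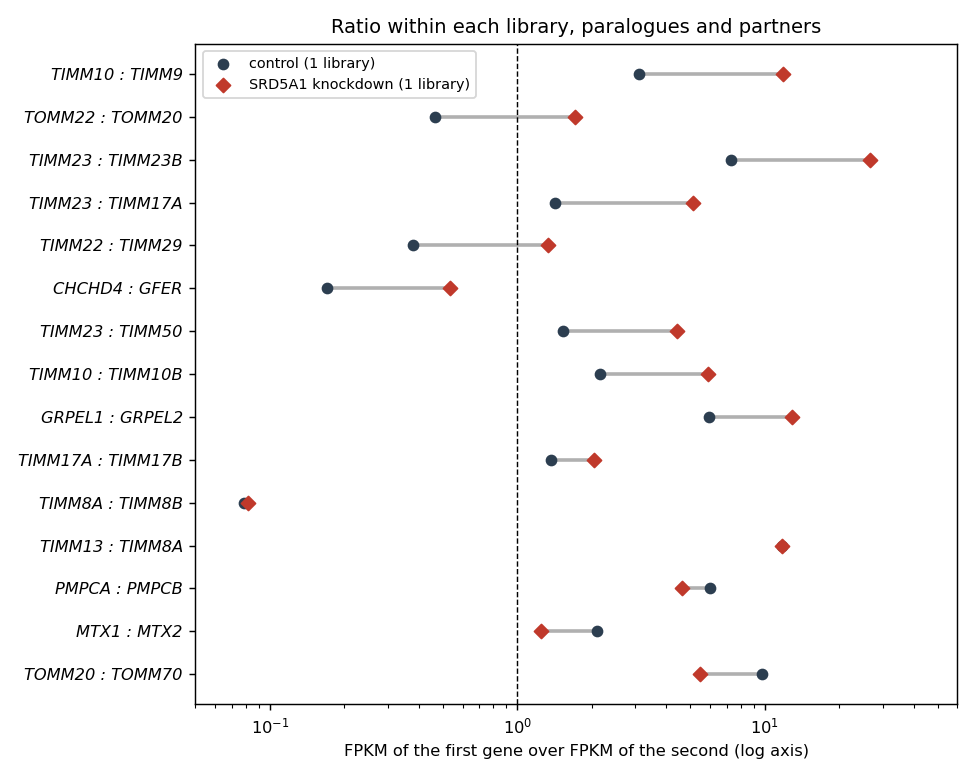
FPKM of the first gene over FPKM of the second (log axis) for 15 pairs of paralogues or partners, in the control (circle) and the knockdown library (diamond), with the dashed line at equal levels. The TIMM22 to TIMM29 and TOMM22 to TOMM20 ratios cross that line, from 0.380 to 1.33 and from 0.464 to 1.71, and TIMM13 to TIMM8A barely moves.

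Several import genes share a start region with a gene on the other strand. CHCHD4 starts 70 bases from TMEM43, which had a difference of 0.32, against 1.74 for CHCHD4. TIMM8B starts 25 bases from SDHD, a subunit of succinate dehydrogenase, which had -0.65 against 1.42. TIMM29 starts 52 bases from YIPF2, which had -1.58 against 0.13. The values lay close together in TIMM10B (0.32) with ARFIP2 (0.33) and in MTX1 (0.39) with THBS3 (0.49). They lay further apart in GFER (0.46) with NOXO1 (1.02), PMPCA (-0.01) with ENTR1 (0.42) and TIMM17B (-0.56) with PQBP1 (0.41). Only protein-coding neighbours with a mean of at least 1 FPKM and a start within 1000 bases were taken. The 8 pairs so defined thus held both close and distant values.

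Further genes of the pathway were called about as often as the background. Of 18 expressed import factors outside the 34, 4 were higher (22.2%) and 1 lower (5.56%), and the median difference was 0.34. DNAJC11, a J protein of the outer membrane bridge, had the largest difference, 2.61 (16.2 against 1.80 FPKM). MIPEP, an intermediate peptidase of the matrix, had 1.92 (8.53 against 1.52 FPKM), and MTCH2, an outer membrane insertase, had 1.83 (29.4 against 7.55 FPKM). The cytosolic chaperone HSPA8 went the other way, at 157 against 514 FPKM, a difference of -1.70.

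The MICOS complex shapes the inner membrane beside the import sites, and 1 of its 6 expressed genes was higher (16.7%, against 20.9% of all expressed genes), with a median of 0.63. MICOS13 had a difference of 1.41 and CHCHD3 of 0.55, while CHCHD6 had -0.39 and IMMT -0.09. Mitochondrial proteases and chaperones had 4 higher of 13 (30.8%, against 20.9%) and 0 lower (against 6.83%), with a median of 0.80. AFG3L2, LONP1 and PHB had differences of 1.25, 1.02 and 1.06, and HSPE1, the co-chaperonin, 0.99. The fourth higher gene of this list is ATF5, a transcription factor of the mitochondrial stress response and no protease or chaperone, named here after its value was seen. It was at 6.15 FPKM in the knockdown library and 0.459 FPKM in the control, a difference of 2.29.

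**Figure D5:**
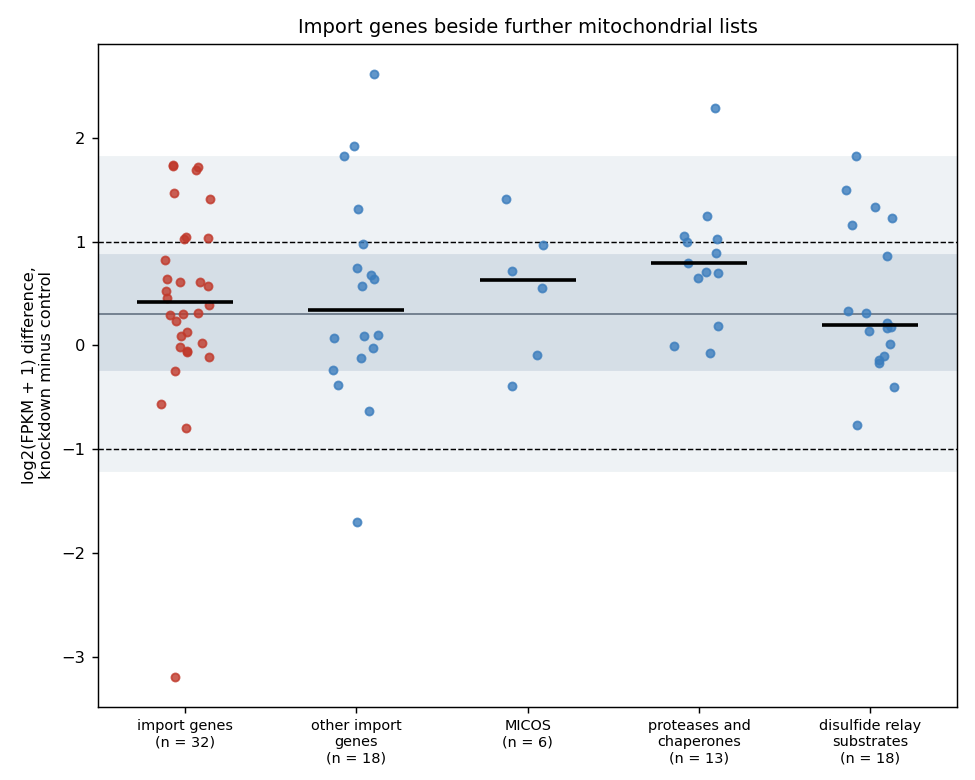
Difference in log2(FPKM + 1), knockdown minus control, of each expressed gene (points) in the import genes and 4 further mitochondrial lists, with the list median (bar), the median of all expressed genes (line), their percentile bands (25 to 75 and 5 to 95) and dashed 2-fold lines. The medians run from 0.20 (disulfide relay substrates) to 0.80 (proteases and chaperones).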

How the data were processed

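Poly(A) RNA of 1 knockdown and 1 control library was sequenced as paired ends, per the labels' protocols, whose text speaks of an adipose type although the labels name a colorectal line. HISAT2 2.0, StringTie 1.3.0 and Bowtie 0.12.2 are the tools in the submitters' processing notes, and the build named there is mm8, a mouse build. The deposited identifiers are human, and 21934 of 31659 rows found in GENCODE release 29 have the same position there (10 of the 34 import genes), so positions are given on GRCh38 as deposited. How reads were counted, and whether by strand, is not given in the sources used here.

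In 1 table the authors deposited FPKM values and whole-number counts per gene. Groups follow the genotype labels, and columns were matched by the tags in the titles. From these values, rows were summed by symbol, and the difference in log2(FPKM + 1) was computed (Python 3.11.15, pandas 2.3.3). CPM ratios from the counts carry exact 95% Clopper-Pearson intervals (scipy 1.17.1), and a count of 0 allows up to 3 counts. No test between conditions was possible. TMM factors (edgeR 4.0.16, R 4.3.3), median ratio and upper quartile scaling, CPM with and without mitochondrially encoded genes, a pseudocount of 0.1, a filter at 5 FPKM, no filter, a GC and length correction and unsummed rows were tried as alternatives. The sum at the TOMM6 locus, added pseudogene counts and principal transcript length were chosen after seeing the data. The 2-fold call and the CPM intervals were tried on simulated counts that held counting error alone.

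All import genes are named, and of each further list up to 4 expressed genes with the largest absolute differences at a mean of at least 5 FPKM, at least 1 of them against the list's median where one was. HSPA9, DNAJC15 and DNAJC19 are named in addition, beside the import motor. The genes and lists were chosen with earlier results of these data known.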

Additional observations from a re-analysis of the deposited data

Results flagged for a closer look

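Counts above the 3 that a count of 0 allows appeared in rows outside the comparison of import genes. The gene that contains all exons of TOMM6, ENSG00000124593, had 4549 counts in the knockdown library and 758 in the control, opposite in direction to TOMM6. Of 11 pseudogene rows of the import genes, 6 had a count. MTX1P1 had 748 and 501 counts, and TOMM20P4 had 91 and 104. CHCHD4P3 had 21 counts in the knockdown library and 1 in the control, and TIMM8AP1 had 29 and 0. Adding the copies moved the CPM ratio of CHCHD4 from 4.40 to 4.46, of TIMM8A from 2.86 to 2.98 and of TOMM20 from 0.567 to 0.569. Whether these rows hold reads of the parent genes was not tested.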

How the results depend on the processing

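Of the 9 higher genes, 6 (CHCHD4, TIMM10, TIMM23, TIMM22, TIMM13 and TIMM8B) kept the 2-fold call under all 13 alternatives. None of the 13 tried another assignment of reads shared by TIMM13, TIMM8B or TIMM22 with overlapping genes, or by TIMM23 with TIMM23B. The summed counts of TIMM23 and TIMM23B had a CPM ratio of 2.79 (2.62 to 2.97). The count of higher genes was 6 of 32 under TMM, median ratio and upper quartile scaling (all expressed genes: 15.2%, 13.1% and 12.7%), where MTX2, TOMM22 and TIMM8A were no longer past 2-fold, and 8 by CPM with mitochondrially encoded genes left out (all: 23.9%), where TOMM22 was not. Under the same 3 scalings 2 genes were lower, TOMM6 and TOMM20 (to -1.19; all: 9.66%, 11.6% and 11.9%), and none, 0, by CPM with TOMM6 summed with the gene that holds its exons (all: 8.01%), where the TOMM6 difference turned to 0.17. The median of the import genes was 0.18 under TMM, 0.066 under the median ratio and 0.050 under the upper quartile, and that of all expressed genes was 0.10, -0.00 and -0.02. The share of higher among all called genes was 75.3% in the main values and 61.1%, 53.1% and 51.6% under these scalings, so every direction is relative to the scaling used. The sign turned in at least 1 alternative for 10 of the 34 genes: TOMM6, and 9 with differences between -0.24 and 0.32 (GRPEL2, TIMM17A, PAM16, PMPCB, TIMM10B, TIMM50, TIMM29, TOMM7 and TOMM70). No paired analysis was possible because each group has 1 library and no replicate numbers, and for the same reason no replicate could be left out. Depth limits TIMM8A, CHCHD4 and TIMM21 in the control library, with 189, 194 and 64 counts.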
